A study of Mus musculus with 12 samples.

Results

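Chemokines that recruit neutrophils or appear early in inflammation were represented by 6 genes, Cxcl1, Cxcl2, Cxcl3, Cxcl16, Ccl3 and Ccl4, of the 19549 features counted in mouse macrophages. They were chosen by name, and each was looked for in the feature names of all 12 libraries, alone or as one symbol of a joined name. All 6 were found, and all 6 were among the 10421 features with enough reads to be tested. Cxcl1, Cxcl2, Cxcl3, Ccl3 and Ccl4 had a feature of their own. Cxcl16 was counted only together with Zmynd15 in a joined feature, so its values below are those of both genes, and their shares cannot be told apart.

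Macrophages were grown from the bone marrow of female FVB mice, described as naïve, and polarized for 4 h with IFNG (interferon gamma, 200 units/mL), the cytokine of classical activation, or IL4 (interleukin 4, 40 ng/mL), the cytokine of alternative activation. About 10% of the cells gave total mRNA, and the lysate of the others was separated on a sucrose gradient of 5 to 50% to collect messages carrying more than 3 ribosomes, here called polysome-associated mRNA. The 4 groups, IFNG polysome, IL4 polysome, IFNG total and IL4 total, held 3 libraries each, numbered 1 to 3. Cells without either cytokine were not among the samples, so a difference between polarizations is IFNG relative to IL4 and shows no change from a resting state. Whether the libraries of a group stand for separate animals or cultures is not stated in the labels, and the spread that each p-value is set against may therefore be technical.

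Chemokines are small secreted proteins that guide leukocytes through G protein-coupled receptors. Cxcl1, Cxcl2 and Cxcl3 belong to the ELR-positive CXC group, which recruits neutrophils through Cxcr2 and which macrophages make early after Toll-like receptor, TNF or IL-1 signalling, under NF-kB. Ccl3 and Ccl4 (the macrophage inflammatory proteins 1-alpha and 1-beta) attract monocytes, T cells and NK cells, and Ccl3 signals in part through Ccr1. Cxcl16 is made as a transmembrane protein whose chemokine domain binds Cxcr6 on T and NKT cells, also takes up oxidized lipoprotein, and is released by membrane proteases. The messages of several of these chemokines are short-lived and carry AU-rich elements.

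In the RefSeq annotation of GRCm38.p6, the assembly that mm10 stands for, the CXC members that recruit neutrophils lie together on chromosome 5. Cxcl3 is at chr5:90786101-90788093, Cxcl1 at chr5:90891245-90893121 and Cxcl2 at chr5:90903899-90905938, with 103151 bases between Cxcl3 and Cxcl1 and 10777 bases between Cxcl1 and Cxcl2. Ccl3 (chr11:83647843-83649378) and Ccl4 (chr11:83648624-83664683) are neighbours on chromosome 11, and their annotated spans share 755 bases. Cxcl16 (chr11:70454389-70459984) shares 552 bases with Zmynd15. Since the sources used here name neither the counting tool nor its strand setting, reads in a shared stretch, and reads that fit more than 1 of the related CXC genes, cannot be assigned with certainty.

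The 100 bases before the annotated start are shown for the 4 members with a promoter in the RefSeq table, since the 3 CXC genes of chromosome 5 share an 11-base stretch there that Ccl3 lacks. Capitals mark GGGAATTTCCC, the longest stretch common to the 3 windows, which holds a form of the kappaB motif bound by NF-kB. Each sequence is written 5′ to 3′ on the strand of its gene.
Cxcl1 (chr5:90891145-90891244, plus strand): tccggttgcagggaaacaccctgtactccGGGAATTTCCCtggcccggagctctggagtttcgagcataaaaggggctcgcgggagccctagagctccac
Cxcl2 (chr5:90903799-90903898, plus strand): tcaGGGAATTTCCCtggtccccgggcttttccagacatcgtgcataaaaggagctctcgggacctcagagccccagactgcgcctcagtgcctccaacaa
Cxcl3 (chr5:90786001-90786100, plus strand): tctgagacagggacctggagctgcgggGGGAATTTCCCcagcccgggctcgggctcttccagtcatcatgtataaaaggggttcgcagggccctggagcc
Ccl3 (chr11:83649379-83649478, minus strand): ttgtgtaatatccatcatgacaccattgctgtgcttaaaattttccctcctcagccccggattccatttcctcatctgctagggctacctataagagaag

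The stretch lay at -71 to -61 in Cxcl1, -97 to -87 in Cxcl2 and -73 to -63 in Cxcl3, counted from the base before the start as -1. Searched on both strands of windows of 300 bases (250 before to 50 after the start), it was found in 14 of 32851 RefSeq promoters, or 0.0426%. It was taken from the members' own sequences, so its presence in them is no test. TTCNNNNGAA, the spacing preferred by STAT6, was in 0 of the 4 members' windows and in 6.95% of all promoters. These counts describe letters in a window and say nothing of which factors were bound. The 14 promoters with GGGAATTTCCC belong to 14 genes, the 3 members included. Of the 7 tested, 0 were called between polarizations in either fraction by edgeR. Their median log2 fold change was 0.88 on polysomes and 0.03 in total mRNA. Over all features 14.1% were called on polysomes and 11% in total mRNA, so 0 of 7 is not a result about these genes.

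Library totals ranged from 2563955 to 22014162 counts, and 3 counts corresponded to 0.184 to 1.13 CPM (counts relative to TMM-scaled library sizes, the unit of all levels below). CPM are not divided by transcript length, so levels of different genes are not compared. The gene Lars2 took 1.78 to 29.3% of the counts of the polysome libraries and 0.341 to 1.9957% of the total libraries. The sum of 10 macrophage markers was 10416 to 16312 CPM in the IFNG polysome libraries, 7825 to 8626 CPM in the IL4 polysome libraries, 12415 to 24340 CPM in the IFNG total libraries and 7966 to 13890 CPM in the IL4 total libraries. The sum of 12 neutrophil markers was 35.2 to 44.0, 17.8 to 28.6, 49.8 to 62.5 and 16.1 to 58.6 CPM in the same order of groups. Among the neutrophil markers, Ly6g had 4 counts and Cxcr2 1 count over the IFNG total libraries, and both had 0 in the other 3 groups. Csf3r averaged 14.4 to 32.8 CPM over the 4 groups, and S100a8 9.12 CPM in IFNG total against 2.59 CPM in IL4 total libraries. S100a9 had 214 counts in IFNG total against 1 count in IL4 total libraries (edgeR adjusted p = 0.000426). The IFNG total libraries were uneven, at 1.40, 1.46 and 15.5 CPM from lowest to highest. S100a9 was the 1 marker called of 5 tested in total mRNA, and 0 were called on polysomes (11% and 14.1% over all features). Ngp, Camp, Ltf, Mpo and Elane also had more counts over the IFNG total than over the IL4 total libraries. Retnlg went the other way, with 0 against 12 counts in total mRNA and 1 against 34 on polysomes (IFNG against IL4). Its IL4 polysome libraries were uneven as well, at 0.756, 0.954 and 8.85 CPM from lowest to highest. Mmp8 averaged 1.78 CPM in the IFNG polysome libraries against 4.37 CPM in the IL4 polysome libraries, and 2.24 against 2.48 CPM in total mRNA. The sum of 6 dendritic cell markers was 17.2 to 44.6 CPM in the IFNG polysome libraries, 0.681 to 1.42 CPM in the IL4 polysome libraries, 8.50 to 26.9 CPM in the IFNG total libraries and 0.552 to 1.23 CPM in the IL4 total libraries. In the IFNG libraries Xcr1 and Clec9a made up most of it. Both were called higher with IFNG in both fractions, while Flt3 had 0 counts in all libraries. Siglech and Ccr7 also had more counts with IFNG in both fractions. Zbtb46, the largest part of the sum in the IL4 groups, went the other way. It averaged 0.445 against 0.660 CPM on polysomes, with 6 counts over each group, and 0.400 against 0.623 CPM in total mRNA (IFNG against IL4). The part of these markers in the members' differences between polarizations was not tested.

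The first question is which members differed between the polarizations. Cxcl16, Ccl3 and Ccl4 were higher with IFNG in polysome-associated and in total mRNA, by 14.5-, 2.73- and 2.39-fold on polysomes and by 16.2-, 3.51- and 4.17-fold in total mRNA. Cxcl1, Cxcl2 and Cxcl3 did not pass the test in either fraction. The count of 3 of 6 members higher and 0 lower stands beside 7.54% of all features higher and 6.58% lower in polysome-associated mRNA (14.1% in either direction). In total mRNA, again with 3 of 6 higher and 0 lower, 7.08% of all features were higher and 3.93% lower (11% in either direction). The median log2 fold change of the 6 members was 1.23 on polysomes and 1.37 in total mRNA, against -0.06 and 0.04 over all features tested. With the library number as a block within each fraction, the counts over all features were 1188 higher and 1223 lower instead of 786 and 686 on polysomes, and 800 lower instead of 410 in total mRNA, while the same 3 members were called. In bulk samples, fewer cells of a type and less RNA per cell cannot be told apart. All tests below are edgeR quasi-likelihood tests, with p adjusted by Benjamini-Hochberg over the 10421 features and a threshold of 0.05.

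**Figure D1:**
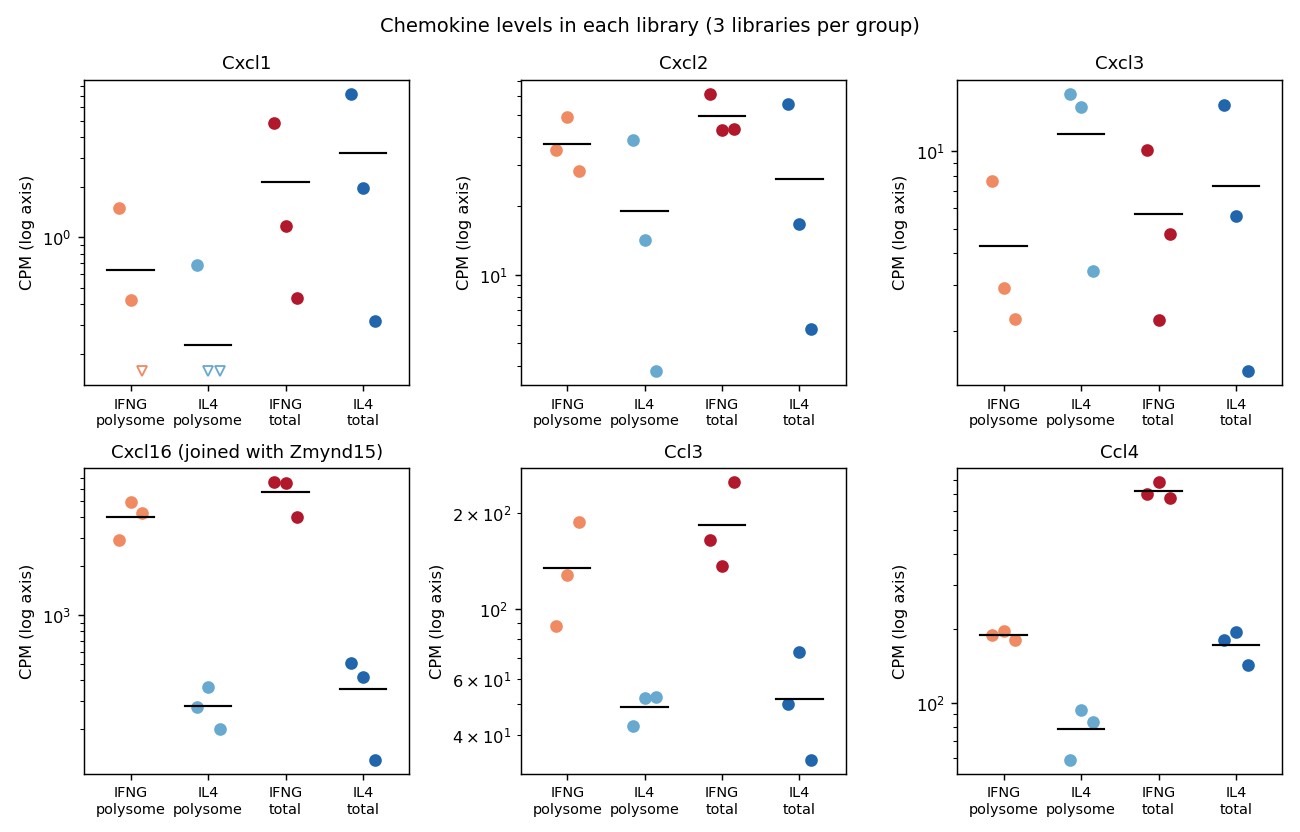
Level of each chemokine gene in every library, in CPM on a log axis, by group (3 libraries a group, drawn left to right as numbered; lines are group means; open triangles mark libraries with 0 counts). For Cxcl16, Ccl3 and Ccl4 every IFNG library lies above every IL4 library of the same fraction, while the polarizations overlap for Cxcl1, Cxcl2 and Cxcl3.

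Cxcl16, the membrane-bound member, had the largest difference between polarizations of the 6. Its joined feature measured 2885, 4946 and 4274 CPM in the IFNG polysome libraries, against 272, 365 and 200.5 CPM in the IL4 polysome libraries. Total mRNA held 6551, 6531 and 4015 CPM with IFNG, against 512, 416 and 129.9 CPM with IL4. Every IFNG library was above every IL4 library of its fraction, as was the case for 15.2% of all features on polysomes and 13.4% in total mRNA (16% and 12.3% the other way round). The log2 fold change was 3.85 on polysomes (SE 0.53, 95% interval 2.76 to 4.95, adjusted p = 2.39e-05) and 4.01 in total mRNA (SE 0.53, 95% interval 2.91 to 5.12, adjusted p = 1.27e-05), both from edgeR. The ratio of IFNG to IL4 libraries of the same number was 10.6, 13.6 and 21.3 on polysomes and 12.8, 15.7 and 30.9 in total mRNA. How much of this came from Zmynd15 reads was not tested.

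Ccl4, an attractant of monocytes and T cells, measured 189, 196 and 180.3 CPM in the IFNG polysome libraries, against 59.0, 94.2 and 83.6 CPM in the IL4 polysome libraries. In total mRNA it measured 702, 781 and 675 CPM with IFNG, against 181, 194 and 142 CPM with IL4. The polarizations did not overlap in either fraction, and within a group the highest library was 1.09 to 1.60 times the lowest, less than for any other member in 3 of the 4 groups and more than for Ccl3 (1.23 times) among the IL4 polysome libraries. The log2 fold change was 1.26 on polysomes (SE 0.38, 95% interval 0.47 to 2.04, edgeR adjusted p = 0.0285) and 2.06 in total mRNA (SE 0.39, 95% interval 1.26 to 2.86, edgeR adjusted p = 0.000736). The call on polysomes was lost without library 2 of the IFNG polysome group or without any 1 of the 3 IL4 polysome libraries (edgeR adjusted p = 0.0627 to 0.098, log2 fold change 1.09 to 1.41), and with no filter on low counts (adjusted p = 0.0576).

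Ccl3, a ligand of Ccr1, measured 88.0, 127 and 187 CPM in the IFNG polysome libraries, against 42.6, 52.4 and 52.6 CPM in the IL4 polysome libraries. Its level in total mRNA was 164, 136 and 249 CPM with IFNG, against 50.0, 72.9 and 33.5 CPM with IL4. The IFNG libraries were again all above the IL4 libraries of their fraction, although they spread more widely than for Ccl4. The log2 fold change was 1.45 on polysomes (SE 0.43, 95% interval 0.57 to 2.33, edgeR adjusted p = 0.0248) and 1.81 in total mRNA (SE 0.43, 95% interval 0.93 to 2.70, edgeR adjusted p = 0.00554). The polysome call was lost without library 2 or 3 of the IFNG polysome group or any 1 of the IL4 polysome libraries (edgeR adjusted p = 0.0541 to 0.0958). The total mRNA calls of Cxcl16, Ccl3 and Ccl4 held in all 23 other settings, with a highest adjusted p of 0.000415, 0.0475 and 0.0105.

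Cxcl2, a neutrophil chemokine of macrophages, measured 34.9, 48.8 and 28.4 CPM in the IFNG polysome libraries, against 38.7, 14.2 and 3.78 CPM in the IL4 polysome libraries. The total libraries gave 61.8, 42.8 and 43.2 CPM with IFNG, against 55.8, 16.6 and 5.76 CPM with IL4. The IFNG libraries lay close together, within 1.71-fold on polysomes and 1.44-fold in total mRNA, while the IL4 libraries spread over 10.2-fold on polysomes and 9.70-fold in total mRNA. Library 1 of each IL4 group was as high as the IFNG libraries, and the other IL4 libraries were below all IFNG libraries of their fraction. Cxcl2 did not pass on polysomes (log2 fold change 0.95, 95% interval -0.42 to 2.32, edgeR adjusted p = 0.383) or in total mRNA (0.92, 95% interval -0.42 to 2.26, edgeR adjusted p = 0.49). Between libraries of the same number the IFNG to IL4 ratio was 0.902, 3.44 and 7.52 on polysomes and 1.11, 2.59 and 7.502 in total mRNA. With the 4 libraries numbered 1 left out, Cxcl2 had a log2 fold change of 2.24 on polysomes (edgeR adjusted p = 0.0291) and 1.92 in total mRNA (edgeR adjusted p = 0.0644). That setting was added after library 1 of the IL4 groups was seen to overlap the IFNG libraries, so it favours a difference and is no test of one.

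Cxcl3, a close relative of Cxcl2, measured 7.66, 2.94 and 2.22 CPM in the IFNG polysome libraries, against 16.8, 14.9 and 3.40 CPM in the IL4 polysome libraries. Total mRNA held 10.1, 2.21 and 4.75 CPM with IFNG, against 15.1, 5.58 and 1.39 CPM with IL4. The polarizations overlapped in both fractions. The log2 fold change was -1.40 on polysomes (95% interval -2.97 to 0.17, edgeR adjusted p = 0.245) and -0.35 in total mRNA (95% interval -1.84 to 1.14, edgeR adjusted p = 0.881). On polysomes the value was below the IL4 library of the same number in 3 of 3 pairs, with ratios of 0.457, 0.198 and 0.651, and in total mRNA it was below in 2 of 3, with ratios of 0.673, 0.396 and 3.41.

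Cxcl1, which like Cxcl2 signals to neutrophils through Cxcr2, was close to the limit of counting in these cells. It had 17, 2 and 0 counts in the IFNG polysome libraries, against 5, 0 and 0 counts in the IL4 polysome libraries. In total mRNA it had 76, 10 and 5 counts with IFNG, against 100, 32 and 5 counts with IL4. Library 1 was the highest in every group, and the groups overlapped. Its level was 1.498, 0.420 and 0 CPM in the IFNG polysome libraries, against 0.681, 0 and 0 CPM in the IL4 polysome libraries, and 4.82, 1.16 and 0.432 CPM in the IFNG total libraries, against 7.25, 1.96 and 0.316 CPM in the IL4 total libraries. Cxcl1 did not pass between polarizations on polysomes (95% interval of the log2 fold change -1.65 to 4.06, edgeR adjusted p = 0.634) or in total mRNA (95% interval -2.60 to 1.52, edgeR adjusted p = 0.867).

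**Figure D2:**
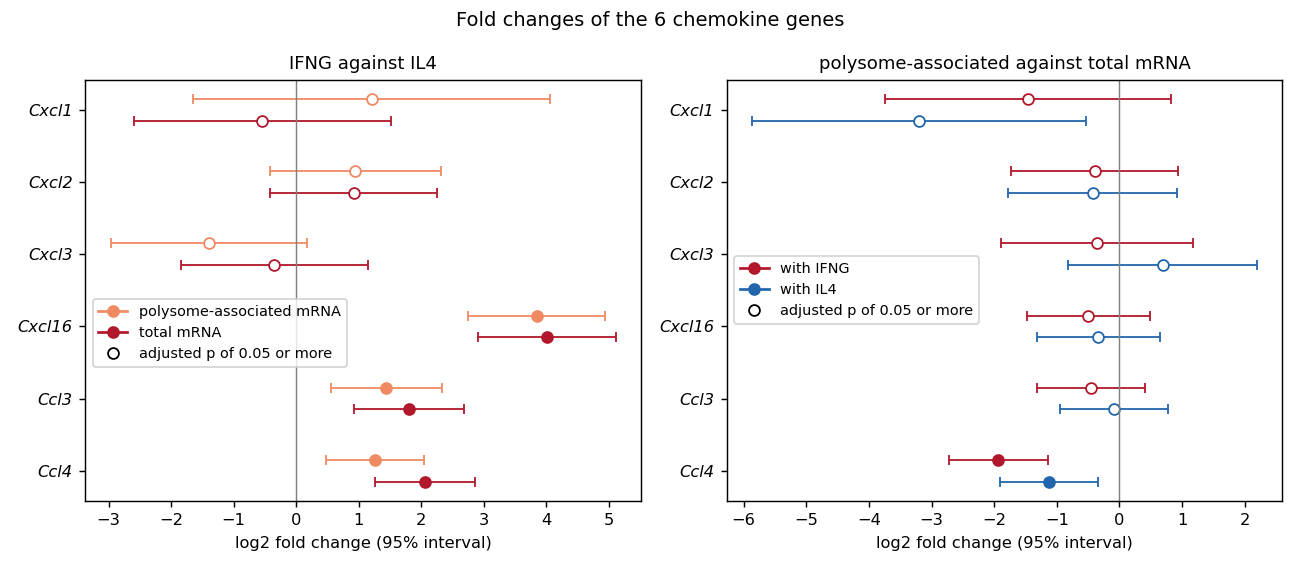
log2 fold changes of the 6 genes from edgeR with 95% intervals, IFNG against IL4 in each fraction on the left and polysome-associated against total mRNA with each cytokine on the right; filled points have an adjusted p under 0.05. On the left Cxcl16, Ccl3 and Ccl4 are filled in both fractions, and on the right Ccl4 alone is filled.

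The order of the libraries within a group differed between members. Cxcl1 and Cxcl3 were highest in library 1 in 4 of 4 groups, and Cxcl2 in 3 of 4. Library 3 was the lowest in 4 of 4 groups for Cxcl1 (tied at 0 counts with library 2 in the IL4 polysome group), and in 3 of 4 for Cxcl2 and Cxcl3. Ccl4 and Cxcl16 were also lowest in library 3 in 3 of 4 groups, but library 1 was highest in 0 of 4 groups for Ccl4 and in 2 of 4 for Cxcl16. Ccl3 was highest in library 3 in 3 of 4 groups and Ccl4 in library 2 in 4 of 4. The numbers paired the polarizations of a fraction across all genes (correlations in the account of the processing), so same-numbered libraries within a fraction are not independent. The share of Lars2 ran the other way on polysomes, at 1.78, 12.8 and 29.3% in IFNG libraries 1 to 3 and 5.15, 11.98 and 18.1% in IL4 libraries 1 to 3; its part in the order of the libraries was not tested. With the number as a block within each fraction, the members called did not change, and Cxcl2 reached a log2 fold change of 1.35 on polysomes (edgeR adjusted p = 0.0968) and 1.44 in total mRNA (edgeR adjusted p = 0.0776).

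**Figure D3:**
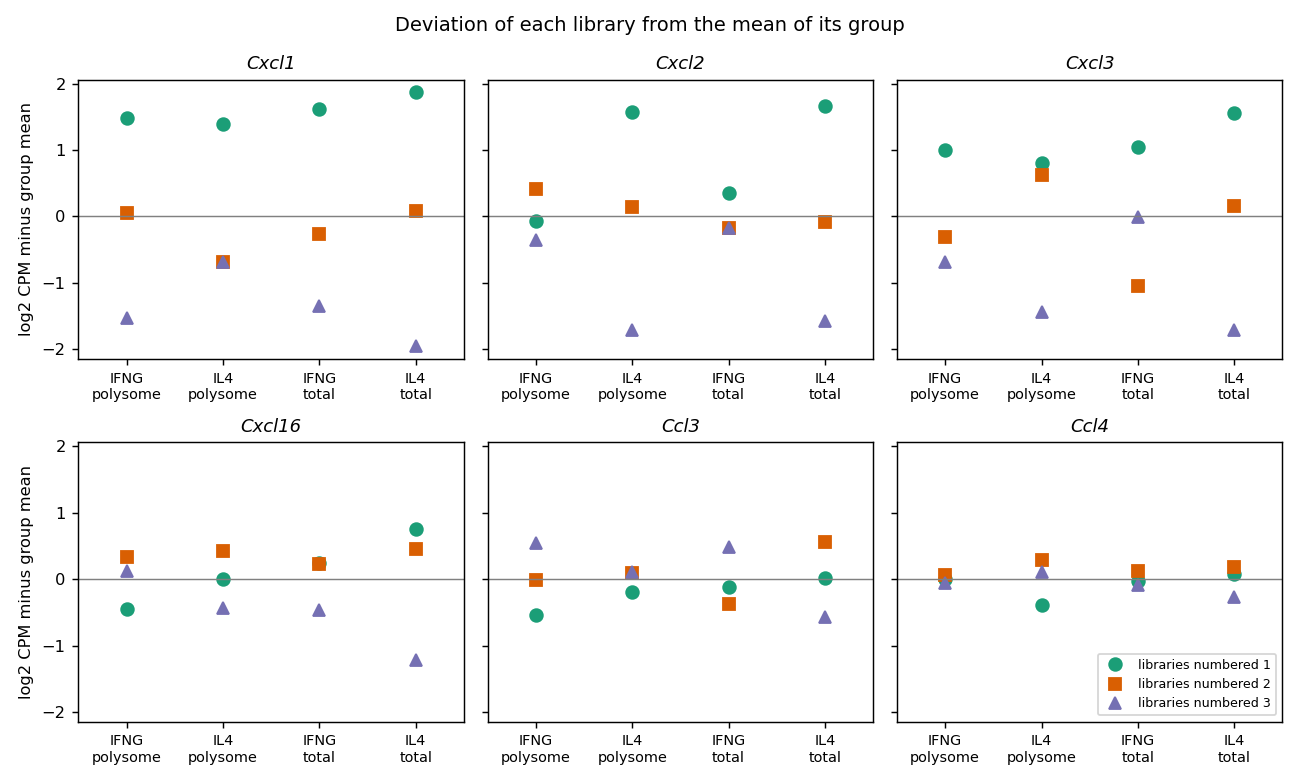
Deviation of each library from the mean of its group, in log2 CPM, for the 6 genes and 4 groups, with library numbers as symbols. Libraries numbered 1 lie above the group mean for Cxcl1 and Cxcl3 in all 4 groups. Ccl4 runs from -0.39 in library 1 to 0.28 in library 2 of the IL4 polysome group, with its other libraries in between.

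The ratio of Cxcl2 to Cxcl3 within a library, a value that does not depend on scaling, is given as a description, since the pair was formed after its values had been seen. It was 4.55, 16.6 and 12.8 in the IFNG polysome libraries, against 2.31, 0.952 and 1.11 in the IL4 polysome libraries. In total mRNA it was 6.09, 19.4 and 9.09 with IFNG, against 3.70, 2.97 and 4.14 with IL4. The groups did not overlap in either fraction, whereas each gene on its own overlapped. Across both fractions the ratio was 4.59-fold higher with IFNG (log2 2.20), and it was 1.66-fold lower on polysomes than in total mRNA (log2 -0.73). Pairs with Cxcl1 were left out because it had 0 counts in 3 libraries.

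The next comparison asks which messages were over- or under-represented on polysomes relative to total mRNA of cells given the same cytokine. Ccl4 was lower on polysomes with both cytokines, 3.81-fold with IFNG and 2.19-fold with IL4, and no other member passed. With IFNG, 1 of 6 members was lower and 0 higher, beside 17% of all features lower and 8.93% higher (25.9% in either direction). With IL4, again 1 of 6 was lower and 0 higher, beside 15.9% of all features lower and 13.2% higher (29.1% in either direction). A share of 1 in 6 is near these backgrounds, so the count is not a result about the members. The median log2 difference of the 6 members was -0.47 with IFNG and -0.38 with IL4, against 0 and 0.06 over all features.

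For Ccl4, the IFNG polysome libraries held 180.3 to 196 CPM, against 675 to 781 CPM in the IFNG total libraries, and the IL4 polysome libraries held 59.0 to 94.2 CPM, against 142 to 194 CPM in the IL4 total libraries. No polysome library reached the lowest total library of the same cytokine, which held for 18.8% of all features with IFNG and 25.7% with IL4 (17.4% and 23.4% the other way round). The log2 difference was -1.93 with IFNG (SE 0.38, 95% interval -2.73 to -1.13, edgeR adjusted p = 0.00157) and -1.13 with IL4 (SE 0.38, 95% interval -1.91 to -0.35, edgeR adjusted p = 0.0295). Same-numbered polysome and total libraries deviated together unevenly, with correlations over 6984 genes of 0.266, 0.430 and -0.073 with IFNG (libraries 1 to 3). With IL4 they were 0.016, 0.396 and 0.046. The labels do not say whether a shared number marks the same preparation, and the main fit did not pair the fractions. Ratios of same-numbered polysome and total libraries therefore only describe the values. For Ccl4 with IFNG this ratio was 0.270, 0.251 and 0.267. With IL4 it was 0.327, 0.484 and 0.588. The IFNG call held in all 23 other settings (log2 -2.01 to -1.78, highest edgeR adjusted p = 0.0142). The IL4 call was lost when any 1 of libraries 1 and 2 of the IL4 total group or 1 to 3 of the IL4 polysome group was left out (edgeR adjusted p = 0.0536 to 0.11), and with no filter on low counts (adjusted p = 0.0592).

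**Figure D4:**
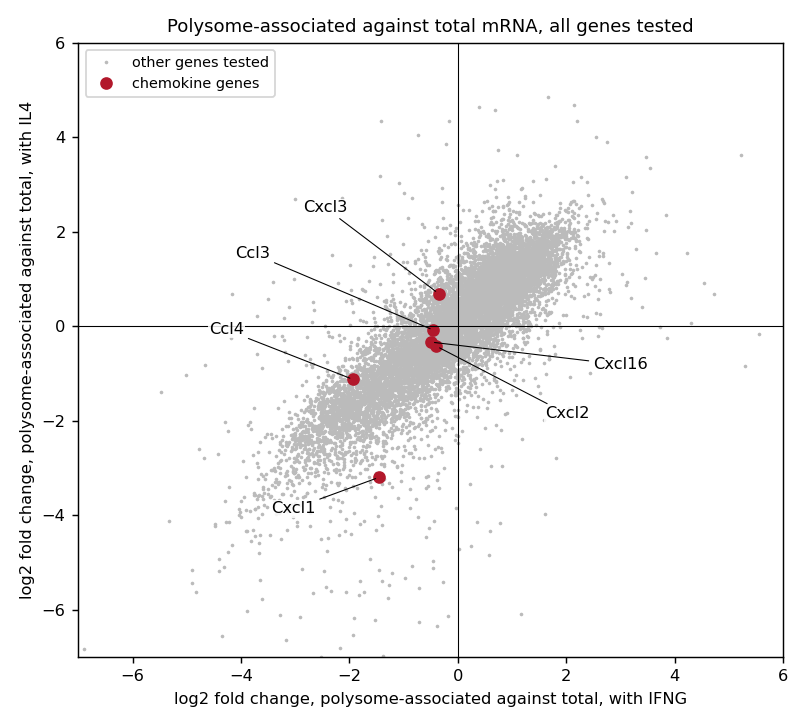
log2 fold change of polysome-associated against total mRNA with IFNG (x axis) and with IL4 (y axis) for the features tested, with the 6 chemokine genes in red; 9 of 10421 features lie outside the axes. Ccl4 (-1.93 and -1.13) and Cxcl1 (-1.45 and -3.20) lie lowest of the 6, and Cxcl2, Cxcl16 and Ccl3 lie close to 0.

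Ccl3, the neighbour of Ccl4, did not pass between fractions, with a log2 difference of -0.45 with IFNG (95% interval -1.31 to 0.41, edgeR adjusted p = 0.44) and -0.09 with IL4 (95% interval -0.95 to 0.78, edgeR adjusted p = 0.892). The Ccl4 to Ccl3 count ratio was 2.15, 1.54 and 0.963 in the IFNG polysome libraries, against 4.28, 5.73 and 2.71 in the IFNG total libraries. With IL4 it was 1.38, 1.80 and 1.59 in the polysome libraries, against 3.61, 2.67 and 4.25 in the total libraries. All 6 polysome libraries were below all 6 total libraries. The ratio was 2.45-fold lower on polysomes (log2 -1.29), and it differed between polarizations by a log2 value of 0.06. This pair too was formed after the values had been seen, with Ccl4 called between fractions and Ccl3 not, so the ratio restates that difference within a library and carries no test.

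**Figure D5:**
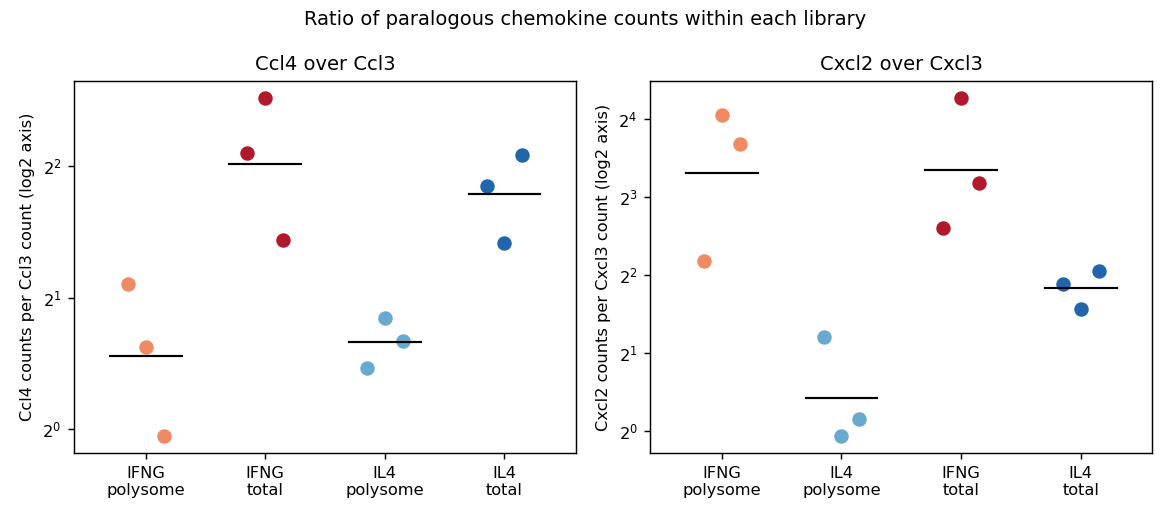
Count ratio of Ccl4 to Ccl3 (left) and of Cxcl2 to Cxcl3 (right) in each library, on a log2 axis, by group (points are libraries, lines are geometric means of 3). Ccl4 over Ccl3 is lower in the 6 polysome libraries, and Cxcl2 over Cxcl3 is higher in the IFNG libraries of each fraction.

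Cxcl16 did not pass between fractions, with a log2 difference of -0.50 with IFNG (95% interval -1.48 to 0.48, edgeR adjusted p = 0.458) and -0.34 with IL4 (95% interval -1.32 to 0.64, edgeR adjusted p = 0.608). Cxcl2 had differences of -0.40 with IFNG and -0.43 with IL4 (edgeR adjusted p = 0.677 and 0.64), with same-numbered ratios of 0.565, 1.14 and 0.659 with IFNG and 0.693, 0.856 and 0.657 with IL4. Cxcl3 had values of opposite sign, -0.36 with IFNG and 0.69 with IL4 (edgeR adjusted p = 0.748 and 0.487). In same-numbered IL4 libraries its polysome level was 1.11, 2.67 and 2.45 times its total level, and in IFNG libraries 0.755, 1.33 and 0.467 times. Cxcl1 had 19 counts over the IFNG polysome libraries, against 91 over the IFNG total libraries, and 5 over the IL4 polysome libraries, against 137 over the IL4 total libraries. Its log2 difference was -1.45 with IFNG (95% interval -3.74 to 0.83, edgeR adjusted p = 0.342) and -3.20 with IL4 (SE 1.29, 95% interval -5.87 to -0.53, edgeR adjusted p = 0.0639). The IL4 value lay close to the threshold and passed it with DESeq2 (adjusted p = 0.0326), with no filter on low counts (edgeR adjusted p = 0.0118) and with the library number as a block (edgeR adjusted p = 0.01). Leaving out 1 library at a time moved it between -7.94 and -1.76, with an edgeR adjusted p of up to 0.364.

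The last comparison asks whether the IFNG to IL4 difference on polysomes departed from that in total mRNA, here called polysome association (an interaction term). None of the 6 members passed, nor did any feature (0% called by edgeR, with 176 of 10421 at an unadjusted p under 0.05; DESeq2 called 1 lower, and limma on the authors' log2 values 1 lower). The estimates ran from -1.05 for Cxcl3 (95% interval -3.20 to 1.11) to 1.75 for Cxcl1 (95% interval -1.77 to 5.27). Ccl4 had -0.80 (95% interval -1.90 to 0.29). The median of the members was -0.26, against -0.10 over all features. Cxcl16 had -0.16 (95% interval -1.55 to 1.22), Ccl3 -0.37 (95% interval -1.58 to 0.85) and Cxcl2 0.03 (95% interval -1.86 to 1.92). Differences of more than 2-fold in either direction lie within the intervals of Cxcl1, Cxcl2, Cxcl3 and Cxcl16.

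Among receptors that bind these chemokines, Ccr1, a receptor of Ccl3, was lower with IFNG, at 2.76 ± 0.337 CPM in the IFNG polysome libraries, against 15.3 ± 4.77 CPM in the IL4 polysome libraries (SD, n = 3; log2 fold change -2.48, edgeR adjusted p = 0.00271). In total mRNA it measured 4.61 ± 1.996 CPM with IFNG, against 13.1 ± 4.22 CPM with IL4 (log2 fold change -1.52, edgeR adjusted p = 0.0482). Its ligand Ccl3 was higher with IFNG in the same libraries. Ccr3 was lower in total mRNA, with 0 counts over the IFNG libraries, against 41 over the IL4 libraries (edgeR adjusted p = 0.0401), of which the highest was 15.5 times the lowest in CPM. On polysomes Ccr3 had 7 counts with IFNG, against 6 with IL4 (edgeR adjusted p = 0.985). Cxcr1 and the decoy receptor Ackr1 had 0 counts in all libraries. Cxcr6, the receptor of Cxcl16, had 8 counts over the IFNG polysome libraries, 1 over the IL4 polysome libraries, 1 over the IFNG total libraries and 0 over the IL4 total libraries.

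Among the proteins that release Cxcl16 from the membrane, Rhbdf2, the partner that brings Adam17 to the cell surface, was higher with IFNG. It measured 424 ± 211 CPM in the IFNG polysome libraries, against 84.2 ± 13.8 CPM in the IL4 polysome libraries, and 318 ± 146 CPM in the IFNG total libraries, against 76.9 ± 29.9 CPM in the IL4 total libraries (SD, n = 3). The log2 fold change was 2.33 on polysomes and 2.05 in total mRNA (edgeR adjusted p = 0.00209 and 0.00549). Adam17, counted jointly with Iah1, was higher on polysomes (log2 fold change 1.30, edgeR adjusted p = 0.0452) and not called in total mRNA (0.25, edgeR adjusted p = 0.848). Adam10 did not pass in either fraction (log2 fold change 1.22 and 1.12, edgeR adjusted p = 0.0989 and 0.163).

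Other genes of the family and of its control are given as counts of lists that were chosen with earlier results of these data known. Of 23 other CC and CXC chemokines, 17 were tested, with 5 higher and 4 lower with IFNG on polysomes and 6 higher and 4 lower in total mRNA. The shares of all features were 7.54% higher and 6.58% lower on polysomes, and 7.08% higher and 3.93% lower in total mRNA. The T cell chemokine Cxcl9 measured 1828 ± 899.7 CPM in the IFNG polysome libraries (SD, n = 3) and had 13 counts over the IL4 polysome libraries. Ccl5, another CC chemokine that attracts T cells, measured 482 ± 238 CPM in the IFNG polysome libraries, against 1.03 ± 1.06 CPM in the IL4 polysome libraries. Ccl9, a relative of Ccl3 that binds Ccr1, went the other way, at 46.7 ± 46.7 CPM in the IFNG polysome libraries, against 355 ± 190.1 CPM in the IL4 polysome libraries (log2 fold change -2.91, edgeR adjusted p = 0.00171). Between fractions, 8 of the 17 were lower on polysomes and 0 higher with IFNG, and 5 lower and 2 higher with IL4, with median log2 differences of -1.42 with each cytokine, against 0 and 0.06 over all features. Over all features 17% were lower and 8.93% higher with IFNG, and 15.9% lower and 13.2% higher with IL4; the difference between the 17 and the 6 members was not tested. Of the remaining ELR and platelet CXC chemokines, Cxcl15 had 0 counts in all libraries, Cxcl5 had 0 counts over the polysome libraries of both cytokines, 1 over the IFNG total libraries and 3 over the IL4 total libraries, and Pf4 was lower on polysomes than in total mRNA with IFNG (log2 -2.81, edgeR adjusted p = 0.000874) and with IL4 (-1.78, edgeR adjusted p = 0.0109).

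Of 12 NF-kB subunits and feedback inhibitors, 4 were higher and 0 lower with IFNG on polysomes, and 4 and 0 in total mRNA. Relb, Nfkbiz and Tnfaip3 were called in both fractions, Nfkb1 on polysomes only, and Nfkbib (counted jointly with Ccer2) in total mRNA only. Beside this and the lists that follow, 7.54% of all features were higher and 6.58% lower on polysomes, and 7.08% and 3.93% in total mRNA. Nfkbiz, an inducible nuclear cofactor, measured 214 ± 99.2 CPM in the IFNG polysome libraries, against 12.2 ± 7.65 CPM in the IL4 polysome libraries (SD, n = 3; log2 fold change 4.09, edgeR adjusted p = 0.000136). The feedback inhibitor Nfkbia did not pass (log2 fold change 1.12 on polysomes and 1.23 in total mRNA, edgeR adjusted p = 0.302 and 0.323). Of 6 early inflammatory cytokines and enzymes tested, Tnf, Il12b and Ptgs2 were higher with IFNG in both fractions, and 0 were lower. Tnf measured 519 ± 192 CPM in the IFNG polysome libraries, against 26.1 ± 19.3 CPM in the IL4 polysome libraries. Of 14 regulators of AU-rich messages, 0 were called between polarizations in either fraction by edgeR. With 14.1% of all features called on polysomes and 11% in total mRNA, 0 of 14 is not a result about these genes. Zfp36, which speeds the decay of such messages, had a log2 fold change of 0.03 on polysomes and 0.84 in total mRNA (edgeR adjusted p = 0.978 and 0.280). Of 11 upstream receptors and adaptors tested, Tlr2, Myd88 and Ticam1 were higher with IFNG in total mRNA (log2 fold change 1.67, 1.42 and 1.24, edgeR adjusted p = 0.0385, 0.0344 and 0.0493). On polysomes 0 of the 11 were called, with 1.49, 0.58 and 1.11 for the same genes (edgeR adjusted p = 0.0566, 0.414 and 0.0733), and the median of the 11 was 0.66 on polysomes and 0.27 in total mRNA. Beside the 14.1% of all features called on polysomes, 0 of 11 is not a result about these genes either.

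Likeness of pattern was measured as the root-mean-square difference in log2 CPM over the 12 libraries, after centring each feature on its own mean, among 6316 features of at least 10 CPM (6315 for members that are among them). It is a description over libraries that share groups and depth. The closest to Ccl4 were Glrx (0.31) and Limd2 (0.37), to Ccl3 Pilrb2 (0.39) and Psme2 (0.40), and to Cxcl16 Icam1 (0.46) and Rab43 (0.47). For Cxcl2 they were Tlr2 (0.53) and Fos (0.58), for Cxcl3 Vwf (0.69) and Gpnmb (0.77), and for Cxcl1 Cd300a (0.70) and Agpat4 (0.71). Glrx shared the lower polysome level of Ccl4, at 545 ± 134 CPM in the IFNG polysome libraries, against 1682 ± 375 CPM in the IFNG total libraries (SD, n = 3). Tlr2 shared the spread of Cxcl2 in the IL4 libraries, at 23.8 to 126.7 CPM in the IL4 polysome libraries and 30.3 to 90.2 CPM in the IL4 total libraries. Among the members themselves the closest were Ccl3 and Ccl4 (0.75), then Ccl3 and Cxcl2 (1.03), and the farthest were Cxcl3 and Cxcl16 (2.53).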

How the data were processed

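Each library had a deposited table of whole-number read counts per gene symbol and, per the file headers, a column of TMM-scaled log2 values made by the authors, which was used in an alternative only. HISAT2, HISAT, limma and mm10 are named in the submitters' processing notes, without versions. A counter, a strand setting or an annotation is not given in those sources. The labels give SmartSeq2 as the library method and spell the first cytokine IFNG and INFG. Tests on the counts used edgeR 4.0.16 (R 4.3.3): filterByExpr over the 4 groups, TMM scaling, and 1 robust quasi-likelihood model of 4 groups fitted to all 12 libraries. The p-values were adjusted by Benjamini-Hochberg over all 10421 features at 0.05. The fitting steps were tested on simulated data, for IFNG against IL4 in total mRNA only and with changes placed in features above a floor of expected counts. Of the changes set, 4.48% of 67 at 2-fold, 46.3% of 67 at 4-fold and 93.9% of 66 at 8-fold were recovered. Of the features called, 5.88% were false. A missing call therefore does not show that a 2-fold or 4-fold difference was absent. Standard errors were taken from the F statistic of each coefficient, and 95% intervals from the t distribution with its degrees of freedom. CPM of 3 counts gives the floor of a library; it covers counting error only.

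Libraries of the same number deviated together between polarizations within a fraction (correlations over 6984 genes of 0.153 to 0.745 in total and 0.153 to 0.352 in polysome libraries). Between the fractions of the same cytokine they did so unevenly, at -0.073 to 0.430 with IFNG and 0.016 to 0.396 with IL4. Where fraction and cytokine both differed, the lowest correlation was -0.161. Counts of no pair of libraries within a group agreed within sampling noise. The members, the lists and the rule for named genes were chosen with earlier results of these data known. The rule was the 6 members in full, the 2 features most like each, and, of each list, the called genes with the highest level, or the highest where none was called. Nfkbia, Cxcr6, Adam10, Cxcl5 and the genes at 0 counts were named beside it, after their values were seen. Alternatives were RLE scaling, other filters, DESeq2 1.42.0, limma 3.58.1 on the authors' log2 values, a fit that is not robust, the compared groups alone, Lars2 left out, replicate blocks and each library left out. RefSeq positions and promoters are those of GRCm38.p6. Some items of the lists are not reported here.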

Additional observations from a re-analysis of the deposited data

How the results depend on the processing

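Of the 6 members' log2 fold changes over all settings, 622 kept their direction and their side of the threshold, 23 turned their sign, 18 lost a call and 9 gained one. The 23 that turned belonged to values that were not called. With a replicate block, Cxcl3 in total mRNA turned to 0.0126, and within fraction the polysome association of Cxcl2 turned to -0.0897. With a filter at 10 CPM, which drops Cxcl1 and Cxcl3, the association of Cxcl16 turned to 0.0785. The cause was not tested.

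Leaving out 1 library at a time gave these ranges of the log2 fold changes that were not called. IFNG against IL4: Cxcl1 -0.37 to 5.95 on polysomes and -2.05 to 0.92 in total mRNA, Cxcl2 0.48 to 2.06 and 0.45 to 2.14, and Cxcl3 -2.17 to -1.02 and -1.13 to 0.72. Polysome association: Cxcl1 0.17 to 6.48, Cxcl2 -1.19 to 1.13, Cxcl3 -2.12 to -0.20, Cxcl16 -0.53 to 0.24, Ccl3 -0.69 to 0.0804 and Ccl4 -0.97 to -0.58. Polysome against total with IFNG: Cxcl1 -3.03 to 0.0163, Cxcl2 -0.64 to -0.13, Cxcl3 -1.14 to 0.40, Cxcl16 -0.67 to -0.31 and Ccl3 -0.72 to -0.0934. The same with IL4: Cxcl1 -7.94 to -1.76, Cxcl2 -1.53 to 0.79, Cxcl3 0.20 to 1.75, Cxcl16 -0.74 to 0.0273 and Ccl3 -0.33 to 0.23. The members called higher on polysomes ranged from 1 to 3, and those lower on polysomes than in total mRNA with IL4 from 0 to 2. Over all features, those higher with IFNG on polysomes ranged from 496 to 1001 and those lower from 351 to 960, and those lower in total mRNA from 237 to 481. Features higher on polysomes than in total mRNA ranged from 297 to 1201 with IFNG and 515 to 1471 with IL4, and those lower from 935 to 2014 and 1004 to 2045. The Cxcl2 to Cxcl3 ratio between polarizations ranged from 1.97 to 2.48 in log2, and the Ccl4 to Ccl3 ratio between fractions from -1.44 to -1.14.

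With DESeq2, with a replicate block and with a replicate block by preparation, 2 members (Cxcl1 and Ccl4) were lower on polysomes with IL4. With the 4 libraries numbered 1 left out, 0 were, and Ccl4 lost its calls on polysomes (log2 1.24, edgeR adjusted p = 0.0995) and between fractions with IL4 (-1.11, edgeR adjusted p = 0.121). That setting gave 328 features higher on polysomes than in total mRNA with IFNG and 483 with IL4; the compared groups alone gave 483 with IFNG. The replicate block within fraction gave 1188 higher and 1223 lower on polysomes and 800 lower in total mRNA. For polysome association, no filter gave 1 higher and 4 lower, and DESeq2 and limma gave 1 lower each. The blocks changed no other call of a member. The settings added after seeing the data were the block within fraction, the libraries numbered 1 left out and the ratios. The compared groups alone gave no polysome association. The block by preparation gave no comparison of polarizations and the block within fraction none of fractions. Cxcl1 had 0 counts in 3 polysome libraries, where its level is known only to an upper limit of 3 counts; whether depth set its missing calls was not tested.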
